A study of Rattus norvegicus with 18 samples.

Results

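The genes described here encode the nuclear part of the oxidative phosphorylation machinery of rat oculomotor nucleus and spinal cord, measured at 3 ages on 18 Affymetrix RA230 arrays. The members were all probe sets whose single gene symbol on the platform begins with Ndufa, Ndufb, Ndufc, Ndufs, Ndufv, Uqcr, Cox4, Cox5, Cox6, Cox7, Cox8 or Atp5. This gave 84 of the 15923 probe sets, for 80 of the 10412 genes named by a single symbol. Where a gene had several probe sets, the one with the highest mean signal stood for it. Genes were assigned to complexes by symbol alone, so that Ndufa4 and Ndufa4l2 were counted under complex I. On this basis complex I contributed 41 genes, complex III 7, complex IV 16 and complex V 16. The symbols also bring in 5 assembly factors of complex I (Ndufaf3, Ndufaf4, Ndufaf5, Ndufaf7 and Ndufaf8), the ATP synthase inhibitor Atp5if1 and the pseudogene Cox6c-ps1. A further 7 probe sets carry a member's symbol beside that of a near-identical gene, among them those of Atp5mc1, Atp5mc2, Cox7a2, Ndufa10, Ndufs5 and Uqcrb, and were left out because their signal cannot be assigned to either gene. Cox7b2 and Cox8c had no probe set named by them alone.

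Each group held 3 arrays: oculomotor nucleus at 6, 18 and 30 months, and spinal cord at 6, 18 and 30 months. The labels name the animals as F344BN for some of the samples, give no treatment or genotype for any, and the series' design text states that tissue of 4 animals was combined in each RNA sample and takes 6 months as the baseline. Differences therefore concern pools, and p-values measure the spread between pools and not between single animals. Where the design text speaks of 4 replicates per group, the labels hold 3, which are the ones used.

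Oxidative phosphorylation couples electron flow along the inner mitochondrial membrane to ATP synthesis. Complex I takes electrons from NADH, complex III passes them from ubiquinol to cytochrome c, complex IV hands them to oxygen, and complex V uses the resulting proton gradient to make ATP. Most subunits are encoded in the nucleus, a few hydrophobic ones in the mitochondrial genome, and neurons depend on the pathway for the ion pumping that firing and transmission require. In nuclear genes of this pathway, promoters often lack a TATA box and carry sites for the factors NRF-1, GABP (an ETS factor) and YY1.

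The promoters of the members were read first. RefSeq promoters (build GRCr8, 250 bases before to 50 after the start site) were found for 72 of the 80 members. Exact matches were searched on either strand. The letters CGCATGCG stood for NRF-1 and AAGATGGC for YY1. The letters CCGGAAG stood for an ETS site such as that of GABP. For the GC box bound by Sp factors the search used GGGCGG, and for the TATA box it used TATAAA. Matches of the ETS and YY1 letters can share bases, but 0 pairs of matches of different motifs did so in the members. Of the 72 promoters, 32 held at least 1 of the first 3 motifs, 9 at least 2, and only Atp5me and Atp5pf held all 3. The YY1 letters were in 22.2% of the members' promoters, in 6.13% of the promoters of all genes tested and in 3.17% of the 33469 promoters in the table. For NRF-1 these shares were 11.1%, 3.79% and 1.66%, and for the ETS letters 26.4%, 18.1% and 8.75%. For the GC box and TATAAA the members lay between the backgrounds. The GC box was in 41.7% of the members' promoters, 65.0% of those of the genes tested and 33.1% of all, and TATAAA in 11.1%, 6.61% and 14.2%. Position was uneven: 13 of the 16 YY1 matches of the members began within 30 bases of the start site (81.25%), compared with 58.8% of the matches in genes tested. For NRF-1 this held for 1 of 9 matches (11.1%, against 26.5% in genes tested) and for TATAAA for 0 of 8 (against 16.1%). For the ETS letters it held for 12 of 24 (50%, against 33.3%) and for the GC box for 8 of 39 (20.5%, against 21.0%). Median GC content was 56% in the members' promoters, 61.7% in those of the genes tested and 51.7% in all, and its part in these shares was not tested. A match describes letters in this window and does not show that a factor binds there.

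**Figure D1:**
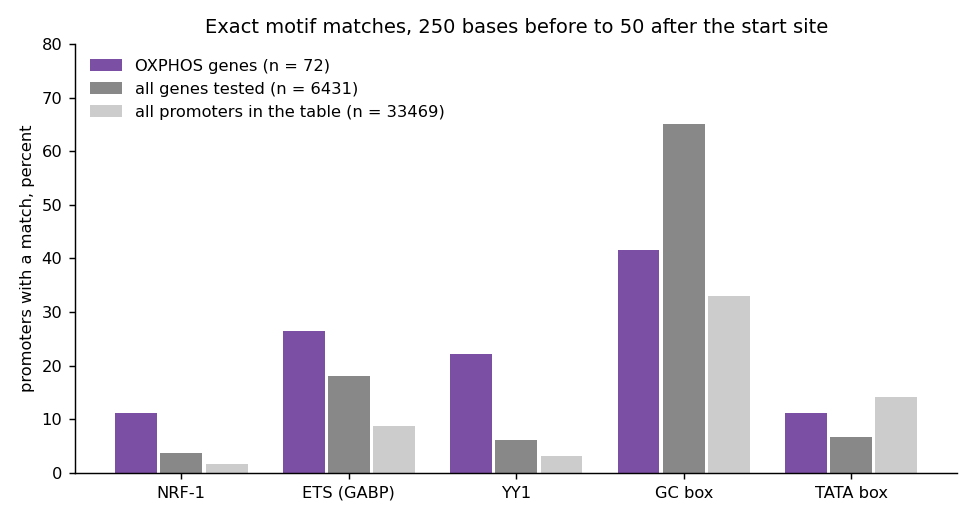
Share of promoters (y axis, percent) with an exact match to each of 5 motifs (x axis) among 72 oxidative phosphorylation genes (purple), 6431 genes tested (dark grey) and all 33469 promoters in the table (light grey). The purple bar is the tallest for NRF-1, ETS and YY1 and lies below that of the genes tested for the GC box.

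Shown next are the promoters of the 2 genes that hold all 3 motifs (Atp5me and Atp5pf, subunits e and F6 of the ATP synthase), of Cox4i1 and Atp5mk, which had lower signal in the cord, and of Cox8a, which holds ETS and YY1 letters next to the start site. Capitals mark the NRF-1, ETS and YY1 letters, and each sequence runs 5′ to 3′ on the strand of the gene.
Atp5me (chr14:1464610-1464909, plus strand): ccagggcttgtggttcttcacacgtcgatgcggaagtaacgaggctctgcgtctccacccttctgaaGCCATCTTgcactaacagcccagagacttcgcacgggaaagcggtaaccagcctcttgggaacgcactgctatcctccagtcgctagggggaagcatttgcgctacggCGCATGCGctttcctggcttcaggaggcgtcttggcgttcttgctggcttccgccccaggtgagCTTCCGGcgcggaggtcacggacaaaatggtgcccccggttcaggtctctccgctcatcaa
Atp5pf (chr11:37375052-37375351, minus strand): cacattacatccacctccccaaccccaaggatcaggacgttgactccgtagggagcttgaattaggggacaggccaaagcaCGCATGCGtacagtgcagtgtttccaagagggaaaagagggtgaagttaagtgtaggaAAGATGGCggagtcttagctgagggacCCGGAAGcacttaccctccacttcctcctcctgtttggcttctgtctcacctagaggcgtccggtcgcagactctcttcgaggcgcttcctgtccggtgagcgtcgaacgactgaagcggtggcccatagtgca
Cox4i1 (chr19:65630133-65630432, plus strand): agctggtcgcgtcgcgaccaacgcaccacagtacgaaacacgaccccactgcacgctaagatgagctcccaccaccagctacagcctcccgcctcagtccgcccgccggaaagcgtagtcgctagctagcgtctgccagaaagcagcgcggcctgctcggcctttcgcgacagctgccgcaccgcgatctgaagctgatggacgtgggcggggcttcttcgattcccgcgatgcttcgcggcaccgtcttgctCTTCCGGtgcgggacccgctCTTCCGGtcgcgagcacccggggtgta
Atp5mk (chr1:255921998-255922297, minus strand): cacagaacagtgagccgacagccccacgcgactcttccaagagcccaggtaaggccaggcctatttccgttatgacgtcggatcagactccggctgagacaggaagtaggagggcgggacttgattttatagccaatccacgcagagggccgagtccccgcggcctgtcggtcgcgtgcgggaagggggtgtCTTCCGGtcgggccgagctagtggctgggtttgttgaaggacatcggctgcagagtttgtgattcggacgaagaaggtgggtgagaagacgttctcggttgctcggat
Cox8a (chr1:213833574-213833873, minus strand): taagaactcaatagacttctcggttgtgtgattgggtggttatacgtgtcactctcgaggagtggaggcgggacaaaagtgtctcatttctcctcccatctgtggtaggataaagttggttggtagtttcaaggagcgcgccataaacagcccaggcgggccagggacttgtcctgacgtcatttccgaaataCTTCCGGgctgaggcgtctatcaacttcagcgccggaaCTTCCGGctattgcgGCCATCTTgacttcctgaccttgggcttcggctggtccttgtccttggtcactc
In Cox8a and Cox4i1 the ETS letters occur at 2 places each. Of the 14 genes with lower signal in the cord described further on, all with a promoter in the table, 5 held ETS letters, 2 YY1 letters and 1 NRF-1 letters. Among all 72 member promoters these counts were 19, 16 and 8. The GC box was in 9 of the 14 and TATAAA in 4, beside 30 and 8 of the 72. Whether the 14 differ from the other members in these motifs was not tested.

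The tissues were checked against their markers. Of the markers of midbrain monoamine neurons, 5 of 5 tested had lower signal in the cord (median log2 difference -3.69), and Th, tyrosine hydroxylase, ranged from 1882 to 2893 on the oculomotor arrays and from 55.4 to 138 on those of the cord. Chat, which makes acetylcholine in motor neurons, ranged from 96.8 to 191 in the oculomotor samples and from 316 to 438 in the cord samples. Of the motor neuron markers, 4 of 4 tested were higher in the cord. Markers were tested if kept by a filter on the mean over all arrays, which kept 4 of 6 motor neuron and 5 of 6 monoamine markers with a probe set. A marker can pass that filter through its signal in 1 tissue alone, which favours the counts of markers given here. Hoxb7, a gene of posterior identity, ranged from 5.2 to 15 in the oculomotor nucleus, below the floor of 66.4 set for all signals, and from 124 to 202 in the cord. The tissues also differed in glia: 13 of 13 microglial markers and 7 of 10 myelin markers passed the test with higher signal in the cord, with median log2 differences of 0.75 and 0.29 over the lists. Markers of choroid plexus and meninges (8 of 10, median 1.47) and of blood vessels (7 of 9, median 0.48) also passed with higher signal in the cord. The other 2 markers of choroid plexus and meninges passed with lower signal, down to -1.41. Of 7 astrocyte markers 5 passed with higher signal and 1 with lower signal (median 0.29). General neuron markers had no common direction, with 4 of 14 called higher and 6 lower. Among all probe sets 47.2% passed this comparison, and 23.6% passed with lower signal in the cord. On the first principal component of the deviations within groups (27.1% of their variance) 4 arrays stood apart, namely oculomotor replicate 3 at 30 months and cord replicates 1, 3 and 3 at 6, 18 and 30 months, and oculomotor replicate 2 at 30 months lay farthest on the other side. In bulk tissue, fewer cells of a type and less RNA per cell cannot be told apart.

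After probe sets with a mean log2 signal of 7.459 or less were set aside, 9482 probe sets remained, 75 of them members: 40 of complex I, 7 of complex III, 12 of complex IV and 16 of complex V. Their mean signals ran from 183 to 8534. The 5 members set aside were Cox4i2, Cox6a2, Cox6b2, Cox8b and Ndufa4l2, isoforms that are known mostly from muscle, testis, lung or low oxygen. Probe sets differ in how strongly they bind, so a signal compares 1 probe set between arrays and gives no order of genes.

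Within groups the median SD of the members was 0.15 on the log2 scale, against 0.18 for all probe sets tested. The members' probe sets also had high signals, with a median percentile of 92.5 by mean log2 signal. Whether their SD differs from that of other probe sets of similar signal was not tested. The steadiest member was Uqcrq, a small subunit of complex III, with an SD of 0.080. The most variable was Uqcr10, another small subunit of that complex, with 0.30. Deviations from the group means ran in parallel: the median correlation between 2 members over the 18 arrays was 0.35, and 79.1% of the pairs were above 0. It was 0.36 for members of the same complex and 0.35 for members of different complexes. These correlations share arrays, scaling and RNA pools, and are given as a description. The same measure was not taken for other probe sets, so it is not shown to be particular to the members. The lowest mean correlations to the other members were those of Atp5pb, the b subunit of the ATP synthase stalk (-0.24), Ndufaf5 (-0.24), Uqcr10 (-0.23), Atp5mpl (-0.23) and Ndufaf7 (-0.15).

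Cord and oculomotor nucleus were compared first, as a mean over the 3 ages with 9 arrays against 9. Signals of 14 of the 75 members passed the test (limma, Benjamini-Hochberg adjusted p under 0.05 over all 9482 probe sets), and all 14 were lower in the cord, by 1.1 to 1.33 times. Complex V contributed 6 of its 16 tested genes, complex I 6 of 40, complex IV 2 of 12 and complex III 0 of 7. Among all probe sets 47.2% passed, and 23.6% passed with lower signal in the cord, so the share of members, 18.7%, was below that background. Lower values prevailed beyond the genes that passed: 56 of 75 members had a lower mean in the cord, with a median log2 difference of -0.08, while the median over all probe sets tested was -0.01. Differences ran from -0.41 to 0.14. In no member was every cord array below every oculomotor array, whereas 6.9% of all probe sets were separated in that way.

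**Figure D2:**
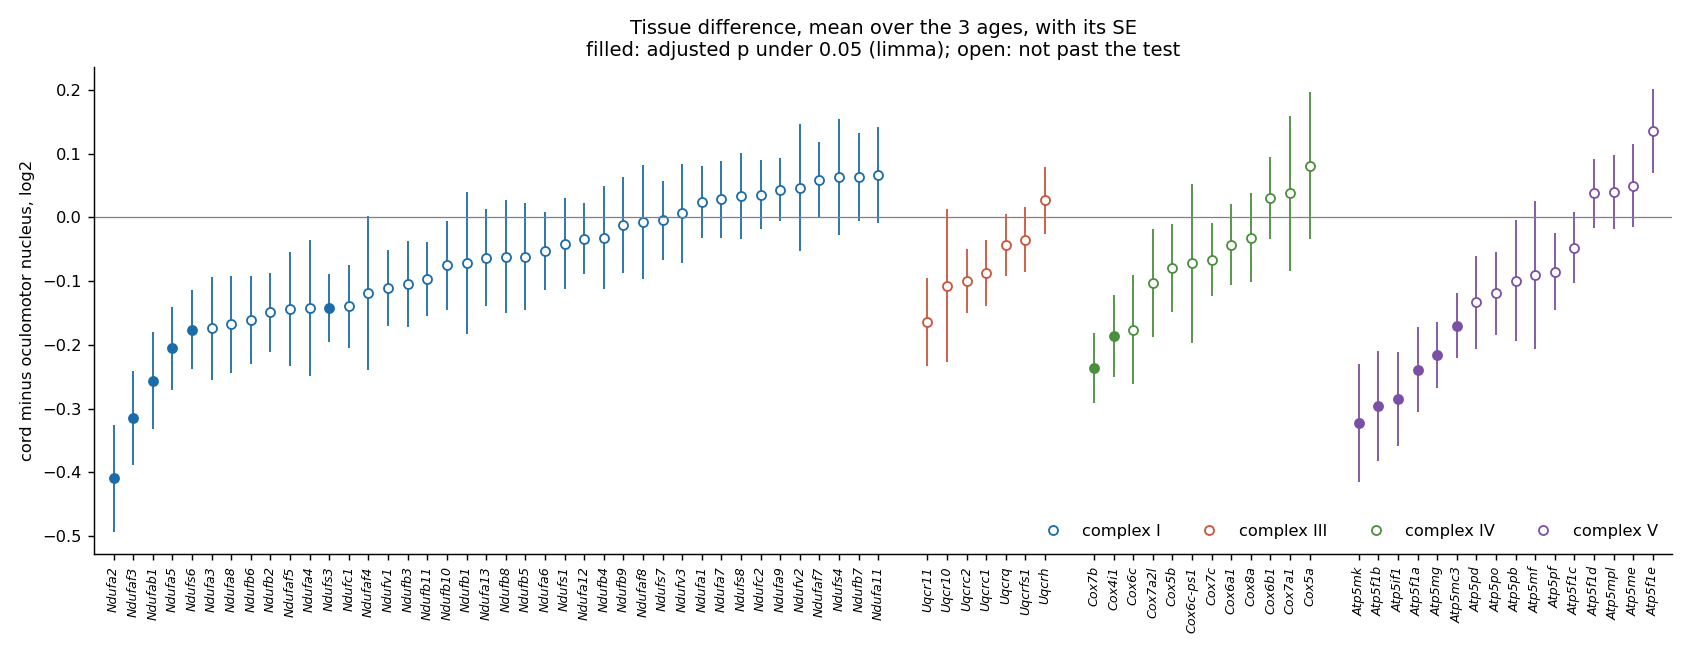
Difference between spinal cord and oculomotor nucleus (y axis, log2, mean over the 3 ages, bars ± SE) for the 75 members tested (x axis), sorted within complexes I, III, IV and V by colour. Filled circles mark the 14 members that passed the test, all below 0, from Ndufa2 at -0.41 to Ndufs3 at -0.14.

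In complex I, the most different member was Ndufa2, an accessory subunit of the matrix arm. Its signal ranged from 888 to 1261 (median 1097) on the oculomotor arrays and from 687 to 1095 (median 811) on the cord arrays, a log2 difference of -0.41 ± 0.083 (SE, n = 9 arrays per tissue, limma adjusted p = 0.000471). The tissues overlapped through 1 cord array at 30 months, at 1095, and 1 oculomotor array of that age, at 888, while the other oculomotor arrays were at 1001 or more and the other cord arrays at 961 or less. Ndufaf3, a factor that acts early in building complex I, ranged from 464 to 619.7 in the oculomotor nucleus and from 394 to 583 in the cord (-0.32 ± 0.074, adjusted p = 0.00161). Ndufab1, the mitochondrial acyl carrier protein that also sits in complex I, had a median of 2562 in the oculomotor nucleus and 2154 in the cord (-0.26 ± 0.076, adjusted p = 0.00944). Ndufa5 and Ndufs6, accessory subunits of the matrix arm, differed by -0.21 and -0.18 (limma adjusted p = 0.0132 and 0.0243). Of the 6 core subunits of the matrix arm that were tested, through which electrons enter, only Ndufs3 passed, at -0.14 ± 0.053 (adjusted p = 0.0355). Ndufs1, Ndufs7, Ndufs8, Ndufv1 and Ndufv2 lay between -0.11 and 0.05 and did not pass.

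Ndufs3 and Ndufs6 were the least secure of these calls, passing under 20 and 27 of the 33 alternatives run. Ndufs3 lost its call when any 1 of 9 arrays was left out: oculomotor replicates 2 and 3 at 6 months, 1 and 2 at 18 months and 1 at 30 months, and cord replicates 1 and 2 at 6 months, 3 at 18 months and 1 at 30 months, with adjusted p from 0.0544 to 0.0788 in limma. Ndufs6 lost its call without oculomotor replicate 2 at 18 months or 3 at 30 months, or without cord replicate 1 at 18 or at 30 months, with adjusted p from 0.0501 to 0.0559.

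None of the 7 genes of complex III passed, and the nearest was Uqcr11, a small subunit, at -0.16 ± 0.069 (limma adjusted p = 0.0582). Uqcrc1 and Uqcrc2, the large subunits that face the matrix, were at -0.09 and -0.10. Uqcrfs1, the Rieske iron-sulphur protein that passes electrons on to cytochrome c1, was at -0.03, with a 95% interval of -0.14 to 0.07.

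In complex IV, Cox7b, a small structural subunit, ranged from 4365 to 5591 (median 4959) in the oculomotor nucleus and from 3831 to 4578 (median 4302) in the cord, a difference of -0.24 ± 0.055 (adjusted p = 0.00148). Cox4i1, the common form of the subunit through which ATP restrains the enzyme, had medians of 7632 and 6416 and differed by -0.19 ± 0.064 (limma adjusted p = 0.022). Without oculomotor replicate 1 at 30 months its limma adjusted p was 0.05, not under the threshold, and its call was lost. The other 10 tested genes of the complex did not pass, from Cox6c at -0.18 to Cox5a at 0.08. The Cox5a probe set ranged from 217 to 402, and a further one that also names another gene was left out.

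Complex V had 6 genes that passed, spread over its parts. In the catalytic F1 head these were Atp5f1a and Atp5f1b, the alpha and beta subunits that bind and release nucleotides. Atp5f1b had a median of 8719 in the oculomotor nucleus and 7125 in the cord (-0.30 ± 0.086, adjusted p = 0.00841), and Atp5f1a of 5628 and 4681 (-0.24 ± 0.066, adjusted p = 0.00588). The other F1 subunits were not lower as a group: Atp5f1c (gamma) was at -0.05, Atp5f1d (delta) at 0.04 and Atp5f1e (epsilon) at 0.14 with an adjusted p of 0.0985 in limma. In the membrane part, Atp5mk ranged from 4536 to 6509.8 and from 3542 to 5415 (-0.32 ± 0.093, limma adjusted p = 0.00764). Atp5mg ranged from 2677 to 3339 and from 2340.4 to 3011 (-0.22 ± 0.052, limma adjusted p = 0.00209). Atp5mc3, of the proton-driven c-ring, ranged from 6066 to 7496 and from 5899.7 to 6469 (-0.17 ± 0.052, limma adjusted p = 0.0109). Atp5mk and Atp5mg belong to the group of small subunits linked to pairing of the enzyme in the cristae. Atp5if1, the inhibitor that stops the enzyme from running backwards, had a median of 1397 in the oculomotor nucleus and 1098 in the cord (-0.29 ± 0.073, adjusted p = 0.00345).

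**Figure D3:**
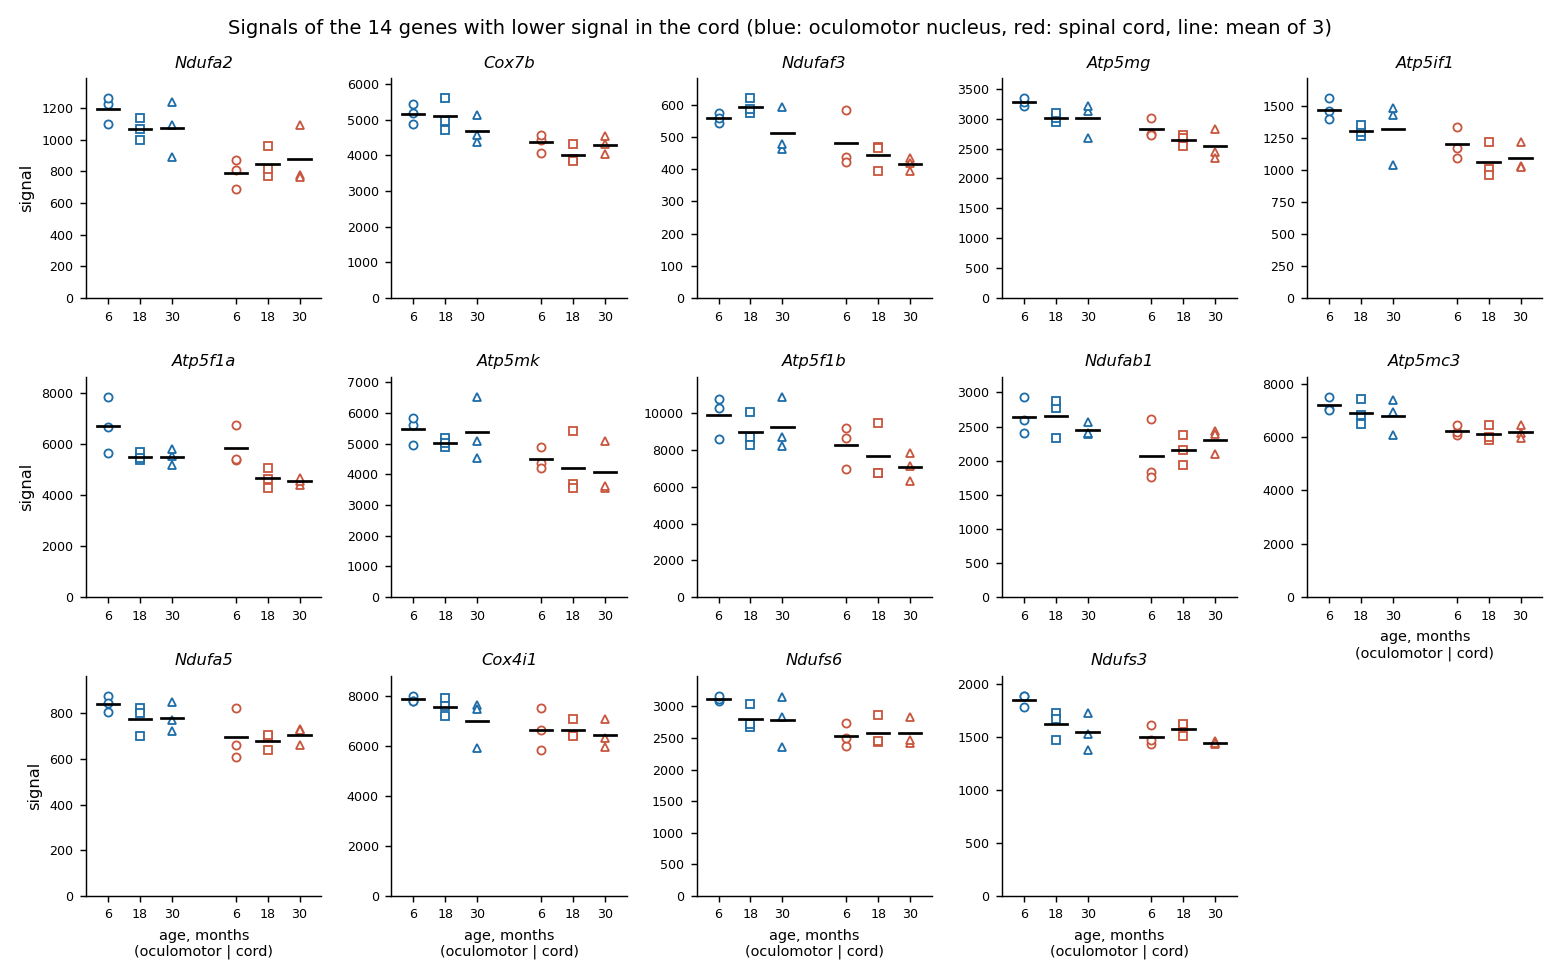
Signals (y axis, linear from 0) of the 14 members with lower signal in the cord, by tissue and age in months (x axis), with 3 arrays per group as symbols and their mean as a line. Cord means lie below oculomotor means of the same age in each panel, and single arrays of the 2 tissues overlap in all 14.

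Of the 14 genes, Ndufa2, Ndufaf3, Cox7b, Atp5f1a, Atp5if1, Atp5mg and Atp5mk passed under all 33 alternatives run for this comparison. Not all 33 could change a call. As 0 members had several probe sets kept, taking the median of a gene's probe sets repeated the main fit. The values as deposited differed from the scaled ones only within rounding. Of 24 skeletal muscle markers 7 were kept by the filter, which used the mean over all arrays. A marker can pass that filter through its cord signal alone, which favours the count that follows. Among the 7 tested, 6 passed with higher signal in the cord (median 1.02). Their median deviation per array ran from -0.18 to 2.34 in the cord and from -0.59 to -0.07 in the oculomotor nucleus. The covariate used next was the mean log2 signal of all 24 markers. With the muscle list as a covariate 8 members passed, 7 of them among the 14, and calls were lost for 7 genes. With the covariate the differences of these 7 genes were all nearer to 0 than without it. They were -0.24 for Ndufab1, -0.19 for Ndufa5, -0.16 for Ndufs6 and -0.16 for Atp5mc3. For Ndufs3, Atp5f1b and Cox4i1 they were -0.11, -0.20 and -0.09. The median of complex V was -0.14 with the covariate and -0.11 without. Medians of complexes I, III and IV were -0.06, -0.04 and -0.04 with it and -0.06, -0.09 and -0.07 without. When the 3 cord arrays with the most muscle signal were left out (replicates 1 and 2 at 6 months and 2 at 18 months), 12 members passed, 9 of them among the 14. With the 4 arrays that stood apart left out, 18 passed. Most markers of glia, vessels, choroid plexus and meninges were also higher in the cord, and their part in the members' difference was not tested.

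Age by age, fewer arrays entered each comparison and fewer members passed. At 6 months 4 members were lower in the cord: Ndufa2 at -0.60 (limma adjusted p = 0.00437), Ndufs3 at -0.30 (adjusted p = 0.0210), Ndufs6 at -0.30 (adjusted p = 0.0421) and Ndufab1 at -0.37 (adjusted p = 0.0438), while 26.1% of all probe sets passed. At 18 months Cox7b (-0.34, adjusted p = 0.0116) and Ndufaf3 (-0.42, adjusted p = 0.0187) passed in limma, against 26.2% of all probe sets. At 30 months 0 members passed in limma, while 21.0% of all probe sets passed at the adjusted threshold. An unadjusted p under 0.05 was found for 6 members, a count to which that share is no background. Atp5mg was nearest at -0.25 (limma adjusted p = 0.0592). With the replicate number as a block 4 members passed at 30 months, an age at which same-numbered arrays of the 2 tissues deviated together (correlations of 0.12, 0.23 and 0.50). These counts depended on single arrays. Without oculomotor replicate 2 at 30 months, 24 members passed over the mean of the ages and 5 at 30 months. The 6-month count was 1 or 2 when any oculomotor replicate of that age or cord replicate 2 was left out, the 18-month count was 0 without oculomotor replicate 3, and the 30-month count was 4 without cord replicate 3.

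The study's main question was the change with age, and no member passed the test at any age in either tissue. From 6 to 30 months 0 of 75 members passed in the oculomotor nucleus (limma, 7 with an unadjusted p under 0.05), where 0.211% of all probe sets passed, and 0 in the cord (limma, 8 with an unadjusted p under 0.05), where 0.221% passed. From 6 to 18 months the counts were 0 in the oculomotor nucleus (4 with an unadjusted p under 0.05 in limma, and 0.0% of all probe sets past the adjusted threshold) and 0 in the cord (6 with an unadjusted p under 0.05 in limma, and 0.728% of all probe sets). From 18 to 30 months they were 0 in both (2 and 1 with an unadjusted p under 0.05 in limma), with 0.0105% of all probe sets past the threshold in each tissue. The shares of all probe sets are those past the adjusted threshold, and give no background for the counts at an unadjusted p under 0.05.

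Most members nevertheless had lower means at the older ages. In the oculomotor nucleus 65 of 75 were lower at 18 months and 64 at 30 months than at 6 months, with median log2 differences of -0.09 and -0.11, and in the cord 61 and 63 were lower, with medians of -0.10 and -0.11. The medians over all 9482 probe sets tested lay between -0.01 and 0.01 in these 4 comparisons, and 4828, 4721, 4790 and 4705 of them were lower. From 18 to 30 months the members were nearly even, with 44 of 75 lower in the oculomotor nucleus and 46 in the cord. All 3 older arrays lay below all 3 arrays of 6 months for 17 members at 18 months and 10 at 30 months in the oculomotor nucleus, where 7.26% and 7.21% of all probe sets did so, and for 10 and 6 members in the cord, against 6.7% and 6.38%. The 18-month and 30-month comparisons of a tissue share its 6-month arrays. A measure of RNA quality, the ratio of 3′ to 5′ signal of the hexokinase control probe sets, was higher on older oculomotor arrays: it lay between 1.57 and 1.64 at 6 months, between 1.75 and 1.89 at 18 and between 1.76 and 1.91 at 30 months. In this ratio every older array was above every 6-month array. The same ratios of the GAPDH and actin control probe sets overlapped between the ages in this tissue. GAPDH lay between 0.99 and 1.02 at 6 months, 1.01 and 1.02 at 18 and 1.00 and 1.09 at 30 months. For actin the ranges were 1.25 to 1.36, 1.22 to 1.49 and 1.31 to 1.54. The part of these ratios in the members' shift was not tested. In the cord the hexokinase ratio ran from 1.93 to 2.12, from 1.67 to 1.97 and from 1.66 to 2.19.

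The complexes had similar medians. From 6 to 30 months in the oculomotor nucleus, complex I had a median of -0.11 with 35 of 40 genes lower, complex III of -0.10 with 6 of 7, complex IV of -0.14 with 9 of 12 and complex V of -0.09 with 14 of 16. In the cord the medians were -0.11 with 33 of 40, -0.09 with 6 of 7, -0.17 with 11 of 12 and -0.12 with 13 of 16. The 6 core subunits of complex I were all lower in both tissues, with medians of -0.22 in the oculomotor nucleus and -0.08 in the cord.

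**Figure D4:**
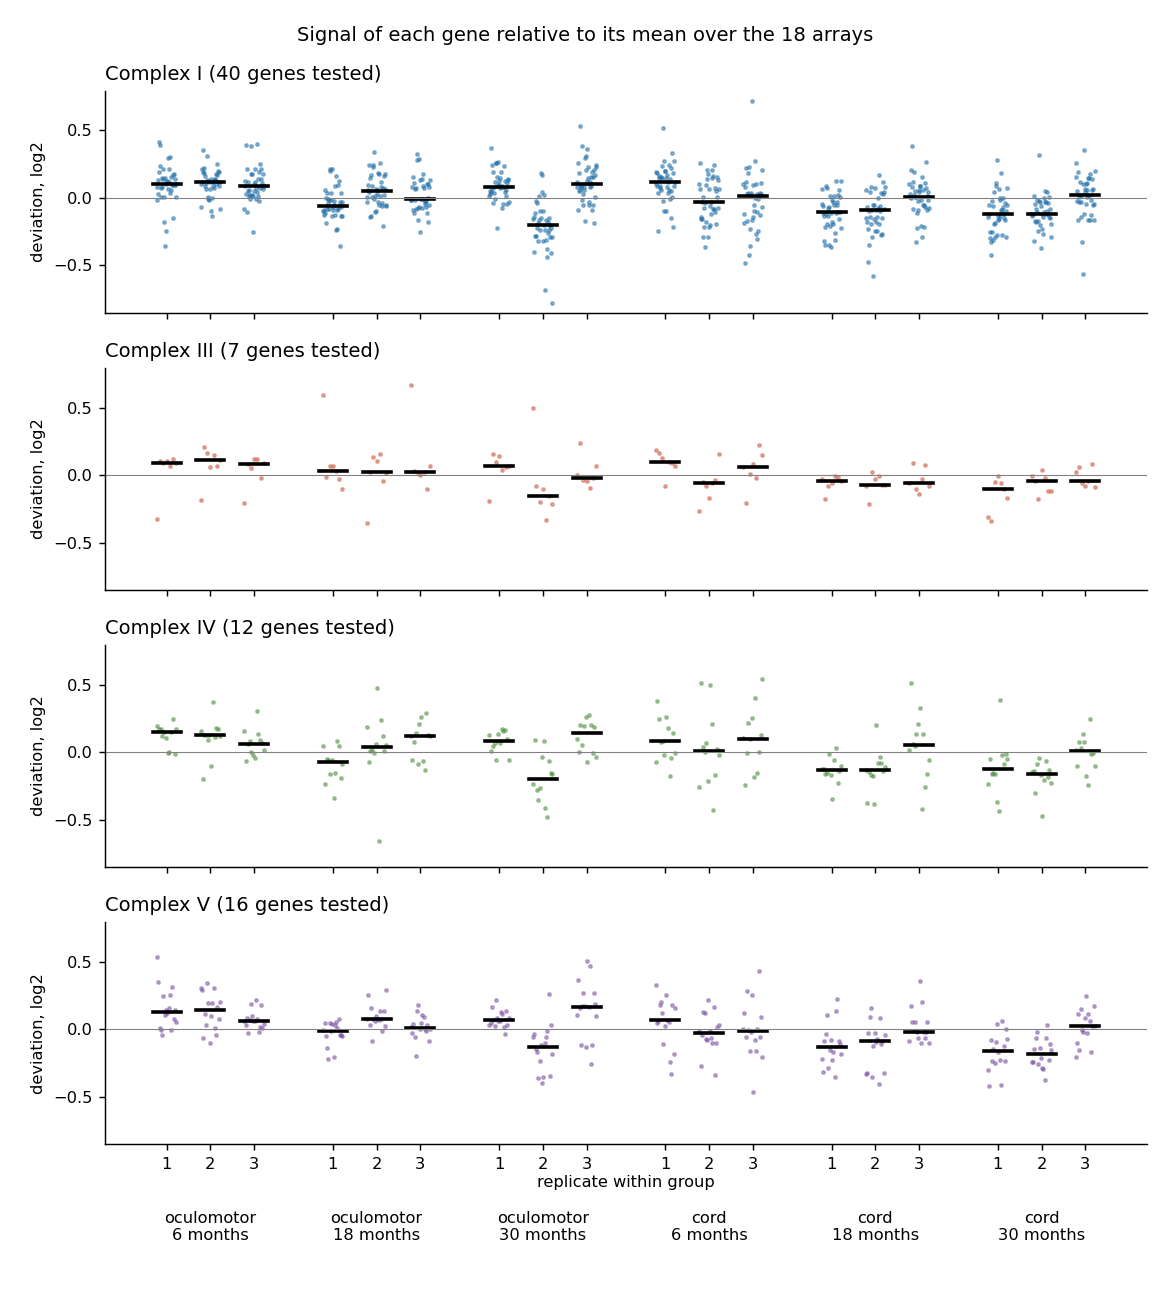
Deviation of each tested gene from its own mean over the 18 arrays (y axis, log2) by array (x axis, replicates within tissue and age), 1 panel per complex, with genes as points and their median as a bar. The bars of oculomotor replicate 2 at 30 months lie lowest among the oculomotor arrays in all 4 panels, at -0.20 for complex I.

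The size of the shift rested on few arrays. The members' median deviation was 0.11, 0.12 and 0.07 on the oculomotor arrays of 6 months, -0.04, 0.06 and 0.01 at 18 and 0.08, -0.18 and 0.10 at 30 months. At 30 months only replicate 2 was low, with 10 of 75 members above their own mean, whereas the other 30-month arrays had 64 and 55 and resembled those of 6 months. Without that array the oculomotor median from 6 to 30 months was -0.0051 and 41 of 75 members were lower. On that array the list of neuron markers was also at its lowest among the oculomotor arrays, at -0.17, and its part in the result was not tested. With the 4 arrays that stood apart left out, the medians from 6 to 30 months were -0.17 in the oculomotor nucleus and -0.11 in the cord. In the cord the per-array medians were 0.10, -0.03 and 0.01 at 6 months, -0.10, -0.09 and 0.01 at 18 and -0.12, -0.12 and 0.02 at 30 months, so replicate 3 of each older group lay within the range of the 6-month arrays. Without the 3 muscle-rich cord arrays, which leaves 1 array at 6 months, the cord median was -0.05 at 18 months, with 44 of 75 lower, and -0.10 at 30 months, with 51 of 75 lower. With the muscle list as a covariate, on all arrays, 59 and 60 of 75 were lower, with medians of -0.11 and -0.13. Microglial markers had higher means at 30 than at 6 months in 13 of 13 cases in both tissues, with 4 and 1 past the test, and muscle markers in the cord had a median of -0.86 with 0 of 7 past the test in limma. In the oculomotor nucleus 9 of 10 markers of choroid plexus and meninges had lower means at 30 months, 3 of them past the test, with a median of -0.80, and 12 of 14 neuron markers had lower means, with 0 past the test in limma and a median of -0.06. The part of the microglial, choroid and neuron markers in the members' shift was not tested.

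Among complex I genes, the smallest p-values in the oculomotor nucleus belonged to Ndufs3, Ndufaf7 and Ndufaf8. Ndufs3, a core subunit, read 1787, 1889 and 1886 at 6 months, 1730.1, 1671 and 1471 at 18 and 1727, 1379 and 1531 at 30 months. Every older array was below every 6-month array, and the difference from 6 to 30 months was -0.27 ± 0.092 (SE, 95% interval -0.46 to -0.08, limma adjusted p = 0.418). In the cord its 30-month difference was -0.05. Ndufaf7, a methyltransferase needed to build complex I, read 464, 457 and 427 at 6 months and 359, 379 and 373 at 30 months (-0.28, limma adjusted p = 0.470), with 18-month values from 401 to 431. Ndufaf8, another assembly factor, went the other way, from 376, 475 and 405 to 577, 496 and 589 (0.41 ± 0.15, limma adjusted p = 0.479). In the cord the leading genes were Ndufv1, which binds NADH and the flavin, Ndufa9 and Ndufb1. Ndufv1 read 2724, 2149 and 2437 at 6 months and 1847, 2032 and 2015 at 30 months (-0.31, limma adjusted p = 0.253), without overlap. Ndufa9 and Ndufb1 differed by -0.23 and -0.40 (limma adjusted p = 0.322 and 0.465), with overlapping arrays. The remaining core subunits Ndufs1, Ndufs7, Ndufs8 and Ndufv2 were at -0.12, -0.23, -0.22 and -0.23 in the oculomotor nucleus and at -0.03, -0.02, -0.11 and -0.10 in the cord. For Ndufv2 the oculomotor value came from 1 array, with 3039, 1617 and 3279 at 30 months.

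In complex III, Uqcrfs1 read 3018, 3201 and 3123 in the oculomotor nucleus at 6 months and 2963, 2290.1 and 2691 at 30 months (-0.24, limma adjusted p = 0.468). In the cord Uqcrq, which helps hold cytochrome b, read 2767, 2937 and 2929 at 6 months, 2567, 2515 and 2497 at 18 and 2347, 2429 and 2489 at 30 months. No older array reached the youngest group, and the 30-month difference was -0.25 ± 0.085 (SE, limma adjusted p = 0.254). Uqcrc1 was at -0.15 in the oculomotor nucleus and -0.11 in the cord, and Uqcrh at -0.14 in the cord. Uqcr10 had split replicates in the oculomotor nucleus, with 1882, 2076 and 2048 at 6 months, 3563, 1846 and 3745 at 18 and 2065, 3340.1 and 2367 at 30 months. Its high arrays were 2 of 3 at 18 months and 1 of 3 at 30 months, and its 30-month difference was 0.34 (limma adjusted p = 0.704).

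In complex IV the leading oculomotor genes were Cox6a1, Cox4i1 and Cox8a, at -0.19, -0.17 and -0.19 (limma adjusted p from 0.695 to 0.727). In the cord Cox8a, the common form of the smallest subunit, read 7548, 7466 and 11048 at 6 months and 7310.03, 6482 and 7052 at 30 months (-0.30, limma adjusted p = 0.374), with 1 high array at 6 months. Cox7a2l, which links complexes III and IV into supercomplexes, was 1 of the few members with higher cord means at the older ages. It read 2429, 2048 and 2476 at 6 months, 2811, 2689.9 and 3028 at 18 and 2706, 2631 and 3265 at 30 months (0.31 ± 0.15, limma adjusted p = 0.470), with every older array above every 6-month array. In the oculomotor nucleus it was at -0.17. The pseudogene Cox6c-ps1 was at -0.55 in the cord (limma adjusted p = 0.35), with 214, 253 and 158 at 6 months and 133, 129 and 158 at 30 months.

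Complex V held the smallest adjusted p-value of all members with age. Atp5f1d, the delta subunit of the rotor stalk, read 3176, 3065 and 3416 in the cord at 6 months, 2745, 2990.2 and 2789 at 18 and 2388, 2681 and 2530.3 at 30 months. The 3 ages did not overlap, and the 30-month difference was -0.35 ± 0.095 (SE, 95% interval -0.54 to -0.15, limma adjusted p = 0.150). In the oculomotor nucleus it was at -0.10. Atp5f1a read 6748, 5352 and 5394 in the cord at 6 months, 4632, 4273 and 5068 at 18 and 4369.6, 4555 and 4681 at 30 months (-0.35, limma adjusted p = 0.225). In the oculomotor nucleus it read 7826, 6677 and 5628 at 6 months and 5517, 5189 and 5790.1 at 30 months (-0.28, limma adjusted p = 0.544), with overlap. Of the 5 subunits of the F1 head tested, 5 were lower in the cord at 30 months (median -0.22) and 4 in the oculomotor nucleus (median -0.10). Atp5me and Atp5mg were at -0.19 and -0.13 in the oculomotor nucleus and at -0.19 and -0.16 in the cord.

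**Figure D5:**
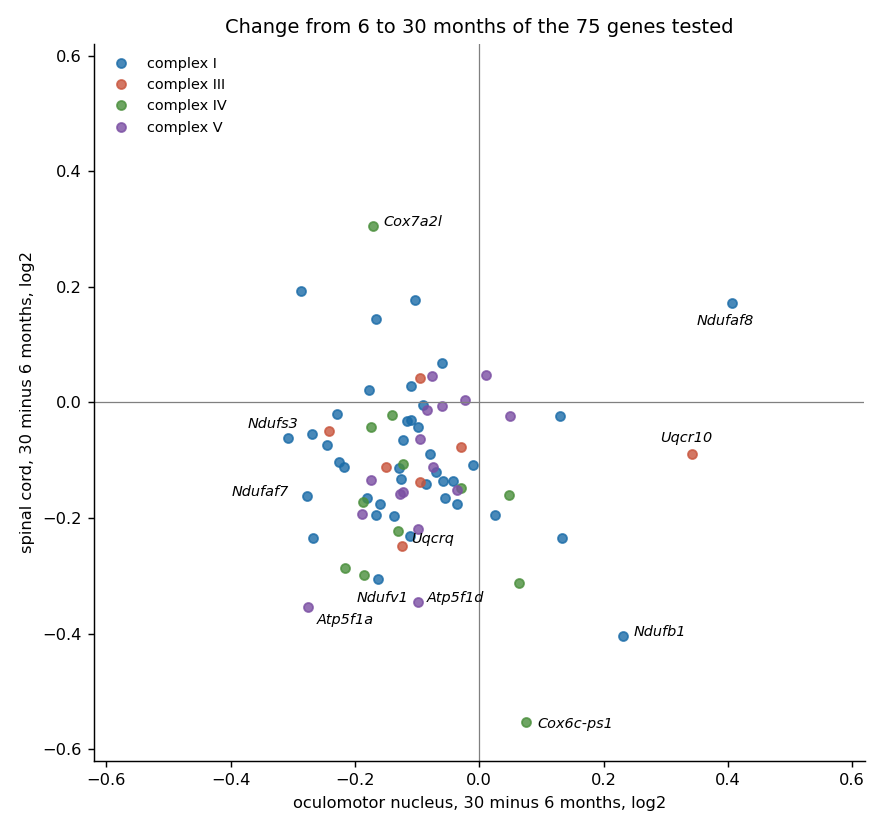
Difference between 30 and 6 months (log2) in the oculomotor nucleus (x axis) and the spinal cord (y axis) for the 75 members tested, coloured by complex, with grey lines at 0. In the lower left lie 54 members, the differences in the tissues have a correlation of -0.035, and no member passed the test on either axis.

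From 6 to 30 months 54 of 75 members (72%) had lower means in both tissues, 2 higher means in both and 19 opposite signs, whereas 28.6% of all probe sets were lower in both. With 64 members lower in the oculomotor nucleus and 63 in the cord, the count follows those of the single tissues. Across the 75 members the differences in the 2 tissues had a Pearson correlation of -0.035, against 0.27 across all probe sets, and genes are not independent replicates. Without oculomotor replicate 2 at 30 months 41 of 75 members were lower in that tissue. Whether the tissues differed in their change was tested directly: 0 members passed in limma (3 with an unadjusted p under 0.05), as did 0.0% of all probe sets, with 519 of them under an unadjusted p of 0.05. The median of this difference was -0.01, the smallest adjusted p was 0.907, and without oculomotor replicate 2 at 30 months the median was -0.12.

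Several subunits exist as a common and a tissue-restricted form, and signals of the restricted forms were low or below the floor. Cox6b2 and Cox8b, known from testis and from muscle, ranged from 3.40 to 36.8 and from 5.60 to 28.1, below the floor of 66.4 on all 18 arrays. Cox4i2, a lung form, ranged from 70.2 to 171 in the oculomotor nucleus and from 106 to 161 in the cord, and with no filter on low signals differed by 0.07 (limma adjusted p = 0.825). Ndufa4l2, a form known from low oxygen, differed by 0.12 (limma adjusted p = 0.758). Cox6a2, the heart and skeletal muscle form, was the 1 restricted form that passed between the tissues. It read 101, 177 and 104, then 110.1, 104 and 136, then 148, 122 and 157 at 6, 18 and 30 months on the oculomotor arrays. On the cord arrays it read 204, 263 and 249.8, then 167, 207 and 204, then 139.9, 210.3 and 179. With no filter on low signals its cord signal was higher by 0.66 (limma adjusted p = 0.00114), by 0.95 at 6 months, 0.73 at 18 months and 0.29 at 30 months, the last with an adjusted p of 0.473. The 3 muscle-rich cord arrays ranged from 204.5 to 263 and the other 6 from 139.9 to 249.8, and the part of muscle transcripts in this difference was not tested. Cox7a1, another muscle form, ranged from 137 to 281 in the oculomotor nucleus and from 162 to 286 in the cord (0.04, limma adjusted p = 0.823). Of the common forms, Cox4i1 and Cox7b were lower in the cord, as given above, and Cox6a1, Cox6b1, Cox8a and Ndufa4 did not pass, with tissue differences of -0.04, 0.03, -0.03 and -0.14. Cox7a2l, a relative of the Cox7a forms, was at -0.10 and did not pass either.

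Other mitochondrial genes were read from lists of subunits outside the symbol rule, assembly factors, the tricarboxylic acid cycle, carriers and regulators of biogenesis. Of these, 0 genes passed in limma between 6 and 30 months in either tissue. Between the tissues, 8 of 23 assembly factors passed with lower signal in the cord and 2 with higher, and 7 of 15 genes of the tricarboxylic acid cycle and pyruvate dehydrogenase passed with lower signal and 2 with higher, beside 47.2% of all probe sets that passed and 23.6% that passed with lower signal. The medians were -0.06 and -0.12, and 14 of 23 and 12 of 15 had lower means. Cox19, a copper-handling factor for complex IV, ranged from 293 to 400.1 in the oculomotor nucleus and from 676 to 874 in the cord (1.17 ± 0.074, limma adjusted p = 2.05e-10). Ttc19 and Uqcc1, which serve complex III, were at -0.55 and -0.32. In the cycle, Suclg2 was at 0.42, Dld at -0.39 and Idh3g at -0.21. Among 11 carriers and channels 3 passed with lower signal and 2 with higher, with Ucp2 and Slc25a13 at 0.65 each and Slc25a11, the oxoglutarate carrier, at -0.26. Complex II, which the symbol rule does not cover, was split, with Sdha at -0.24 (limma adjusted p = 0.00498) and Sdhd at 0.16 (limma adjusted p = 0.00446). Of 6 regulators of mitochondrial biogenesis only Polg, the polymerase of mitochondrial DNA, passed, at 0.20 (limma adjusted p = 0.0135).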

How the data were processed

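RNA of 18 pools was measured on Affymetrix RA230 arrays. The authors deposited linear signal intensities made with MAS5, per the submitters' processing notes, and each array had a 2% trimmed mean of about 500.1 (from 500.08 to 500.10), and was brought to the same trimmed mean by factors within rounding of 1. Scanner intensities were not used here, so the effect of another summary of the probes was not examined. Signals below 66.4, the 20th percentile over all arrays, were set to that floor, log2 was taken, and probe sets with a mean above 7.459, the 40th percentile, were kept. Of 15923 probe sets, 57 manufacturer controls were left out.

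The 6 groups were fitted together in limma 3.58.1 (R 4.3.3) with a mean-variance trend and 12 residual degrees of freedom, and p-values were adjusted by Benjamini-Hochberg over all 9482 probe sets. Same-numbered arrays were checked for shared deviations from their group means: of 27 pairs 5 correlated above 0.1, among them the 3 pairs of the tissues at 30 months, and the labels state no pairing. Probe sets were named from the platform annotation. The genes to be named were, with age, the 3 smallest p-values per complex and tissue from 6 to 30 months, and between tissues those that passed without overlap, of which there were 0; the 14 that passed were named after their values were seen. Isoforms and core subunits were always named. The members and lists were chosen with earlier results of these data known. Alternatives covered normalization, floor, filter, pseudocount, fitting options, the replicate number as a block, left-out arrays, muscle transcripts and the study's 1.7-fold rule. The precision is limited by 3 arrays per group. The procedure was tested on simulated data.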

Additional observations from a re-analysis of the deposited data

How the results depend on the processing

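Of the counts and medians recomputed, 383 were within the limits set and 29 moved. The members' median of the interaction of tissue and age, -0.0062 and not a called value, took either sign. Single genes kept their side of the threshold in 961 cases, lost a call in 28, and 0 reversed, and the lost calls belonged to 7 genes. The counts of 383 and 961 include alternatives that could hardly differ from the main fit, such as the median of a gene's probe sets and the values as deposited. With age 0 members passed under each alternative run.

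The number of members that passed between the tissues, 14 over the mean of the ages, 4 at 6 months, 2 at 18 months and 0 at 30 months, moved as follows. Quantile normalization gave 7, 5 and 3 at the 3 ages. With no filter 1 passed at 30 months. Without the 4 arrays that stand apart on the first principal component (27.1% of the variance within groups; oculomotor replicate 3 at 30 months, and cord replicates 1, 3 and 3 at 6, 18 and 30 months) 10, 8 and 1 passed, and with these arrays as a block 15, 9 and 5, and 25 over the mean. The muscle list as a covariate gave 8 over the mean and 2 at 6 months, no mean-variance trend 2 at 6 months, array weights 12 at 18 months and 6 at 30 months, and the fold rule 0 at 6 and 0 at 18 months.

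Leaving out 1 array at a time gave 12 to 24 members over the mean and 1 to 5, 0 to 3 and 0 to 5 at 6, 18 and 30 months. The members' median from 6 to 30 months ran from -0.1711 to -0.0051 in the oculomotor nucleus and from -0.1611 to -0.0612 in the cord, that of the difference between the tissues in this change from -0.1246 to 0.0619, and that between the tissues from -0.106 to -0.0439. The cause of these moves was not tested.

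Replicate numbers did not pair the samples throughout: over 27 pairs with the same number the correlation of deviations ran from -0.26 to 0.50, and 5 were above 0.1, 3 of them the pairs of the tissues at 30 months. With the replicate number as a block 17 members passed over the mean, 5 at 6 months, 3 at 18 months and 4 at 30 months.

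Members without a kept probe set, and those whose probe set names several genes, have no value here. The precision is that of 3 pools per group.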
